A study of Mus musculus with 2 samples.

Results

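The cells described here are 159 Ccr2 positive monocytes of mouse glioblastoma, of which 123 carried Plac8, found among 54574 barcodes that passed quality filters (0.291%) out of 56943 in the deposited matrices. A cell was taken as a member when it carried at least 1 unique molecular identifier (UMI, 1 counted RNA molecule) of Ccr2, at least 1 of Plac8, Fgr or Adgre5, and Csf1r or S100a4. Its Arg1 count was at most 1 UMI, its summed Olig1, Olig2 and Ptprz1 count at most 3 UMIs, and Flt3, Cd3e, Cd3g, Ncr1, P2ry12 and Tmem119 were at 0. The limits were set on genes of dendritic cells, T cells, NK cells, microglia, tumor cells and macrophages high in arginase. The members were thus chosen by their own measured counts of these genes, and the values of these genes are a description from which no test result is drawn.

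The tumors grew from mGSC, a single mouse glioblastoma stem cell line that is Trp53+/- and Nf1+/-, injected into the right striatum of immunocompetent C57BL/6 mice. The mice received vehicle or Xevinapant by gavage for a week, and both groups carried the same tumor line. Xevinapant is a SMAC mimetic, a small molecule that antagonizes the inhibitor of apoptosis proteins (IAPs). Each group was deposited as 4 matrices from 1 pool, and the 3 most alike pairs of matrices were counted as 1 sample each. This gave 3 vehicle samples, named vehicle 1 and 3, vehicle 2, and vehicle 4, and 2 Xevinapant samples, named Xevinapant 1 and 2, and Xevinapant 3 and 4. Values below are listed in that order. The sample labels give the groups different pools and batch dates, and RNA types, so these and the treatment cannot be told apart.

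Ccr2 is the receptor through which monocytes leave the bone marrow and follow Ccl2 and Ccl7 into inflamed or tumor tissue. In glioblastoma such monocytes are a known source of tumor macrophages, and as they mature they lose Ccr2 and Plac8 and gain genes such as C1qa, Apoe and Mrc1. Classical monocytes are marked by Ly6c2, Chil3 and Hp, and nonclassical monocytes, which patrol vessels, by Nr4a1, Ace, Spn and Treml4. Ly6c2 and Cx3cr1 had no probe in this assay, so the usual split of monocytes by those genes could not be made.

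Of the 159 members, 10, 2 and 27 came from the vehicle samples and 75 and 45 from the Xevinapant samples. Beyond Ccr2, which the rule required, S100a4 (a calcium-binding protein of motile cells) was detected in 79.2% of members. Plac8, a small cysteine-rich protein of monocytes and granulocytes, was detected in 77.4%, the Src-family kinase Fgr in 73.0% and the adhesion receptor Adgre5 (CD97) in 56.0%. Csf1r, the receptor for the macrophage growth factor, was seen in 85.5%, and the leukocyte antigen Ptprc (CD45) in 91.2%. All 5 markers were found together in 58 members. Of Plac8, Fgr and Adgre5, 51 members carried 1, 47 carried 2 and 61 carried all 3.

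The marker levels varied among samples without a common order. Ccr2 stood at 1381, 1564 and 1456 counts per 1000000 UMIs (CPM) in the vehicle samples and at 1111 and 1298 CPM after Xevinapant. Plac8 stood at 4143, 3271 and 2018 CPM in vehicle and at 2401 and 2066 CPM after Xevinapant. The 2 members of vehicle 2 gave the highest Adgre5 level, 1849 CPM, against 405 to 697 CPM in the other 4 samples. S100a4 lay between 1564 and 2291 CPM in all 5 samples.

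Cells on either side of the limits were counted. Of the members, 152 had no Arg1 UMI and 7 had 1, while 6 cells that met every other condition had 2 Arg1 UMIs, 6 had 3 and 2 had 4. A further 70 had 5 or more, 2 of them in vehicle and 68 in Xevinapant matrices. On the tumor transcripts, 106 members had 0 UMIs, 32 had 1, 14 had 2 and 7 had 3, and 9 cells lay just outside at 4. A further 45 had 8 or more, 26 of them in vehicle and 19 in Xevinapant matrices. The shares of members given below depend on both limits. Leaving out the Ccr2 condition alone would have added 276 cells, and allowing Tmem119 would have added 72.

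The members were smaller in RNA content than most of the cells around them. Their median was 4555 UMIs, against 7040 in macrophages with 5 or more Arg1 UMIs (Arg1 macrophages, 158 cells), 8128 in microglia (579 cells) and 15669.5 in tumor cells. Macrophages with at least 2 C1q genes, Mrc1 and Ms4a7 (C1q macrophages, 177 cells) had a median of 2421 UMIs. By sample, the members' median was 4283, 3516 and 3264 UMIs in vehicle and 5243 and 4441 UMIs after Xevinapant. Summed over members, the samples held 44175, 7032, 103054, 446504 and 238096 UMIs, so that 3 counts, taken as the detection floor, correspond to 67.9, 427, 29.1, 6.72 and 12.6 CPM. Vehicle 2, with 2 members, resolves little. For 41 of the 159 members the droplet barcode also occurred in another matrix of the same pool, and 466 whole barcodes were shared by matrices of different pools.

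The members made up 0.110%, 0.0280% and 0.189% of barcodes in the vehicle samples and 0.845% and 0.297% in the Xevinapant samples. Every Xevinapant value was above every vehicle value. The means were 0.109% ± 0.0803 (SD, n = 3) and 0.571% ± 0.388 (SD, n = 2), a difference of 0.462 percentage points (two-sided, by exact permutation over samples, p = 0.1; no lower p can be had from 3 samples against 2). The 95% exact binomial intervals cover counting error only. They ran from 0.0528% to 0.202% in vehicle 1 and 3, from 0.00339% to 0.101% in vehicle 2 and from 0.124% to 0.274% in vehicle 4. After Xevinapant they ran from 0.666% to 1.06% in Xevinapant 1 and 2 and from 0.216% to 0.396% in Xevinapant 3 and 4. The intervals of vehicle 4 and Xevinapant 3 and 4 thus overlapped. The difference without Xevinapant 1 and 2 was 0.188 percentage points, so 1 sample held most of it. With each of the 8 matrices counted as 1 mouse, the test gave p = 0.0286 (exact permutation test, two-sided). All immune barcodes differed too, at 4.76%, 2.89% and 3.05% of cells in vehicle and 13.1% and 5.95% after Xevinapant. Immune barcodes were held to the same limit on tumor transcripts as members. With that limit at 0 UMIs, their shares were 2.74%, 1.32% and 1.07% in vehicle and 9.18% and 3.11% after Xevinapant.

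Within the immune compartment the groups overlapped. Members were 2.32%, 0.971% and 5.96% of immune barcodes in vehicle and 6.29% and 4.91% after Xevinapant. The mean difference was 2.51 percentage points (exact permutation test, two-sided, p = 0.3). It was 1.46 without vehicle 2, 3.95 without vehicle 4 and 5.21 with cells thinned to 3000 UMIs. Vehicle 4 lay with the Xevinapant samples, and the other vehicle samples lay below. The number of members per Arg1 macrophage was 0.625, 0.5 and 6.75 in vehicle and 0.721 and 1.5 after Xevinapant (exact permutation test on the log2 ratio, two-sided, p = 1). The log2 ratio differed by -0.30 between the groups, and by 0.90 without vehicle 4, which held 27 members and 4 Arg1 macrophages, and 0.23 without Xevinapant 1 and 2. The rule caps Arg1, and Ccr2 was found in 44.9% of Arg1 macrophages.

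**Figure D1:**
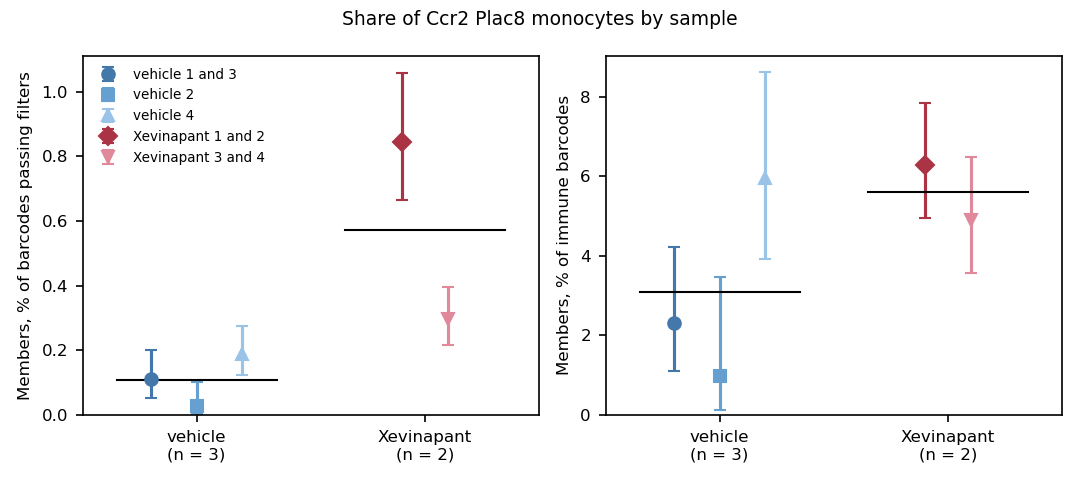
Share of Ccr2 Plac8 monocytes in each sample, as a percentage of all barcodes passing filters (left) and of immune barcodes (right). Points are samples, bars are 95% exact binomial intervals for counting error, and horizontal lines are group means; the Xevinapant samples, at 0.845% and 0.297%, lie above the vehicle samples on the left, while 5.96% in vehicle 4 lies between them on the right.

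The genes by which members stood apart from other myeloid cells follow from how the cells were chosen, so they are described without a test. Only genes outside the rule with a mean of 50 CPM or more in members were counted. Of these, 700 were above the Arg1 macrophages in all 5 samples, 531 above the C1q macrophages and 742 above microglia. The counts have no share over all genes of that level beside them. The 12 with the highest ratio in each contrast are named here, with other genes of the same lists beside them.

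Antigen presentation genes were prominent against the Arg1 macrophages. Ciita, the master activator of MHC class II genes, was at 407, 284, 378, 291 and 433 CPM in members and at a mean of 1.31 CPM in Arg1 macrophages. H2-Eb1, an MHC class II beta chain, was at 8353, 9243, 5512, 7075 and 5162 CPM in members, with means of 84.6 CPM in Arg1 macrophages, 881 CPM in C1q macrophages and 970 CPM in microglia. H2-Aa and H2-Ab1, the alpha and beta chains of I-A, had means of 5420 and 6861 CPM in members against 93.6 and 164 CPM in Arg1 macrophages. Cd74, the invariant chain that guides class II molecules, had a mean of 15082 CPM against 438 CPM. Summed over the 17 genes of the MHC class II list, the mean was 42418 CPM in members, 7300 CPM in Arg1 macrophages, 11540 CPM in C1q macrophages and 14734 CPM in microglia.

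Genes of both monocyte subsets were present. Chil3 (Ym1), a chitinase-like protein of classical monocytes, was at 1607, 142, 2426, 907 and 1373 CPM in members, against means of 280 CPM in Arg1 macrophages, 8.15 CPM in C1q macrophages and 17.1 CPM in microglia. Hp, which encodes the hemoglobin scavenger haptoglobin, was at 860, 142, 747, 450 and 349 CPM against a mean of 4.22 CPM in microglia. Ifitm6, a myeloid interferon-induced transmembrane protein, was at 340, 284, 223, 340 and 206 CPM, against means of 47.5 CPM in Arg1 macrophages and 2.17 CPM in microglia. Hp was found in 34.0% of members and 22.8% of Arg1 macrophages. F13a1, also a classical marker, was found in 40.3% of members but in 82.9% of Arg1 and 50.8% of C1q macrophages. Summed over the 22 classical genes with probes, members had 15167, 16069, 17758, 14170 and 14108 CPM. Arg1 macrophages had 8690, 8911, 10006, 12686 and 14931 CPM, above the members in Xevinapant 3 and 4.

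Among nonclassical genes, Ace (angiotensin converting enzyme) was at 385, 2275, 175, 128 and 92.4 CPM in members, against means of 49.9, 0.75 and 7.2 CPM in Arg1 macrophages, C1q macrophages and microglia. Adgre4 (F4/80-like receptor) was at 113, 427, 67.9, 73.9 and 67.2 CPM and at a mean of 0, 0.75 and 1.13 CPM in those classes. Each Adgre4 value rested on 3 to 33 UMIs per sample. The 14 nonclassical genes with probes summed to 2875, 6684, 2571, 2255 and 2520 CPM in members, the highest value being that of the 2 members of vehicle 2. In Arg1 macrophages they summed to 2663, 3187, 961, 2599 and 2647 CPM, above the members in both Xevinapant samples.

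Further genes were shared by more than 1 contrast. Napsa, an aspartic protease, was at 340, 284, 311, 282 and 244 CPM in members, and its means were 47.7 CPM in Arg1 macrophages, 1.49 CPM in C1q macrophages and 18.8 CPM in microglia. The mast cell and monocyte membrane protein Mcemp1 was at 58.8 to 284 CPM in members and at means of 21.8 CPM or less elsewhere. F10, coagulation factor X, was at 179 to 284 CPM in members, above C1q macrophages and microglia (6.5 and 9.58 CPM) but below the mean of 324 CPM in Arg1 macrophages. Mgl2 (CD301b), a lectin of monocyte-derived antigen-presenting cells, was at 22.6, 853, 262, 98.5 and 294 CPM in members and was listed at 0 in every sample of Arg1 macrophages. Pglyrp1, a peptidoglycan-binding granule protein, and Ltb, lymphotoxin beta, had means of 118 and 90.6 CPM in members and of 4.33 CPM or less in the other classes. Both were highest in vehicle 2, where 284 CPM is 2 UMIs.

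**Figure D2:**
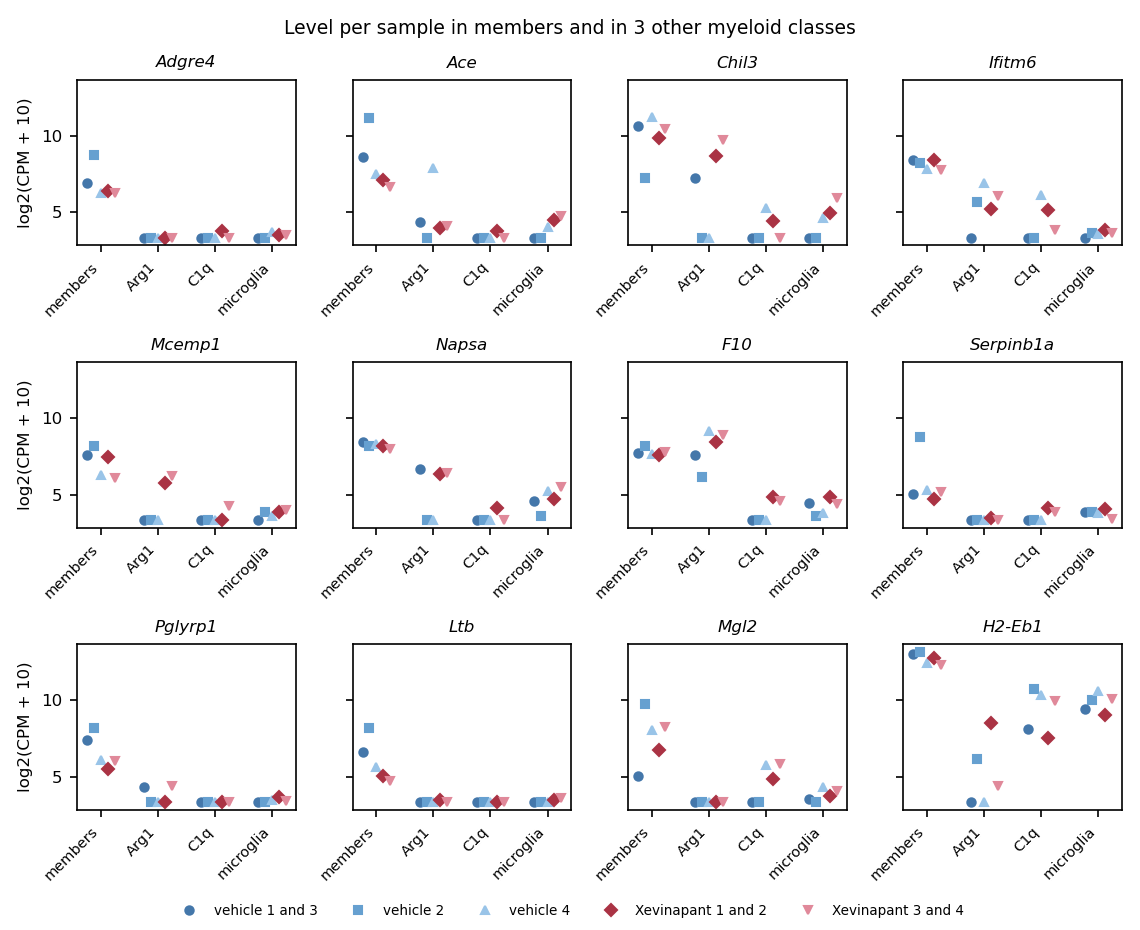
Level of 12 genes in each sample, as log2(CPM + 10), in the members (n = 5 samples) and in Arg1 macrophages, C1q macrophages and microglia of the same samples. Each point is 1 sample's summed cells; H2-Eb1 means were 7069 CPM in members against 84.6 CPM in Arg1 macrophages, and F10 was the 1 gene shown with a higher mean in another class.

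The remaining names of those lists were Nxpe4, Tppp3, Serpinb1a, Sigirr and Arhgef37 against Arg1 macrophages, S100a6 and Fn1 against C1q macrophages, and Nfe2 and Irf4 against microglia. Their mean levels in members ran from 53.3 CPM for the transcription factor Irf4 to 2317 CPM for Fn1, fibronectin. Fn1 was lower in vehicle 1 and 3, at 611 CPM, than in the other samples, at 1834 to 4266 CPM. Serpinb1a and Sigirr were carried largely by vehicle 2, at 427 CPM or 3 UMIs each, and were between 9.70 and 29.1 CPM in the other samples.

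Genes of mature macrophages were present at lower levels. The 30 genes of the macrophage list summed to a mean of 27885 CPM in members, against 84213 CPM in Arg1 macrophages, 94587 CPM in C1q macrophages and 100179 CPM in microglia. Apoe, the lipid carrier, was at 5252, 8248, 7220, 5718 and 6762 CPM in members and at a mean of 36471 CPM in C1q macrophages. The lysosomal protease Ctsb had a mean of 4094 CPM in members and of 9376 to 10156 CPM in the other 3 classes. Spp1, osteopontin, had a mean of 96.2 CPM in members and of 16210 CPM in Arg1 macrophages. C1qb was at 6542 CPM in the 2 members of vehicle 2 and at 2332 to 2537 CPM in the other 4 samples, against a mean of 2508 CPM in Arg1 macrophages.

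Markers of other cells were checked because the class II level of the members was high. Of the dendritic cell markers, Flt3 was 0 by the rule, Ccr7 was at 0, Xcr1 gave 1 UMI, Clec9a gave 18 UMIs in 6 members and Cd209a gave 48 UMIs in 7 members, 39 of these UMIs in Xevinapant 3 and 4. Zbtb46, a transcription factor of classical dendritic cells, was found in 15.7% of members. For its own dendritic cell cluster the study used Ciita, H2-Aa, H2-Ab1 and Cd74 as markers. Ciita was found in 42.1% of members, against 1.90%, 5.65% and 13.1% of Arg1 macrophages, C1q macrophages and microglia. H2-Aa, H2-Ab1 and Cd74 were found in 61.0%, 62.9% and 80.5% of members. In Arg1 macrophages they were in 14.6%, 35.4% and 45.6% of cells, and in microglia in 42.8%, 60.6% and 63.9%. Ciita, H2-Aa and H2-Ab1 were among the 12 genes of highest ratio to Arg1 macrophages. The 12 genes of the dendritic list summed to a mean of 1287 CPM in members. The means were 1592 CPM in Arg1 macrophages, 1946 CPM in C1q macrophages, 2987 CPM in microglia and 719 CPM in tumor cells. Detection of a gene of that list therefore does not by itself mark a dendritic cell. Ccr2, Plac8 and Fgr belong to the rule, so their detection does not test the label of monocytes. Outside the rule, that label rests on the subset genes above, and not all of these were highest in members. Batf3, Irf4 and Kmo, also known from dendritic cells, were found in 29.6%, 10.7% and 11.95% of members. In Arg1 macrophages, C1q macrophages and microglia they were in at most 22.3%, 3.39% and 1.55% of cells. Wdfy4 and Fscn1 were in 43.4% and 17.6% of members, but in 52.3% and 34.9% of microglia. Whether members include dendritic cells was not tested. A share of cells with dendritic features cannot be told apart by these genes. The neutrophil genes Ly6g, Cxcr2 and Retnlg were at 0, and S100a8 and S100a9 gave 13 UMIs and 1 UMI, while Csf3r was found in 82 members, Mmp8 in 20 and Cd177 in 17. The 12 genes of the neutrophil list, 4 of them at 0, summed to 142 to 427 CPM in members by sample, and to means of 331 CPM in Arg1 macrophages, 270.4 CPM in C1q macrophages and 177 CPM in microglia. Cd79a, Fcmr, Gzma and Klrb1c were at 0 and Cd3d gave 3 UMIs in 1 member. Klrk1 (NKG2D) was the most detected gene of the lymphocyte list, in 9.43% of members.

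Some RNA of other cells was concentrated in single members. In 1 member of Xevinapant 1 and 2, endothelial genes stood together, with 104 of 118 Flt1 UMIs of all members, 92 of 156 Pecam1 UMIs, 78 of 81 Egfl7 UMIs and 571 of 844 Sparc UMIs. In 1 member of vehicle 4, red cell genes stood together, with 562 of 990 Hbb-bs UMIs, 352 of 553 Hba-a2 UMIs and 312 of 398 Hbb-bt UMIs. Another member of vehicle 4 held 15 of 17 Acta1 and 15 of 16 Myh4 UMIs, both skeletal muscle genes, and no other sample had any. Tumor transcripts, over 18 genes, were at 6.14%, 4.66% and 15.9% of their level in tumor cells in the vehicle members and at 5.47% and 7.81% in the Xevinapant members, highest in vehicle 4. Of the 14 genes on the myeloid progenitor list, 6 were at 0 in all members.

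The members were not uniform. Shares of cells with given genes were compared after thinning every cell to 3000 UMIs, which 119 members reached (6, 1, 15, 64 and 33 by sample). At least 2 of H2-Aa, H2-Ab1, H2-Eb1 and Cd74 were found in 67.3% of members before thinning and 63.0% after it. In tumor cells, which should lack these genes, the shares were 9.91% and 1.34%, at a median depth of 15669.5 UMIs. Tumor cells were taken as barcodes with over 3 summed UMIs of Olig1, Olig2 and Ptprz1 and no Ptprc UMI. Barcodes with leukocyte RNA were thus partly left out beforehand, and the tumor shares here may be too low as a background. At least 2 of C1qa, C1qb and C1qc, the complement genes of tissue macrophages, were found in 40.9% of members and 37.8% after thinning, against 7.55% and 1.39% of tumor cells. At least 2 of Nr4a1, Ace, Spn and Treml4 were found in 24.5% of members and 21.8% after thinning, against 5.11% and 0.607% of tumor cells. After thinning, that nonclassical combination was seen in 2.69% of microglia and in 0 of 140 Arg1 and 0 of 74 C1q macrophages.

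At least 1 of the cell cycle genes Mki67 and Top2a was detected in 40.3% of members, and in 31.1% after thinning. Tumor cells had them in 88.3% and 70.9%, and no share of cycling members is read from these values, since free RNA of tumor cells was not measured. In Arg1 macrophages the thinned share was 17.9% and in microglia 47.3%.

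**Figure D3:**
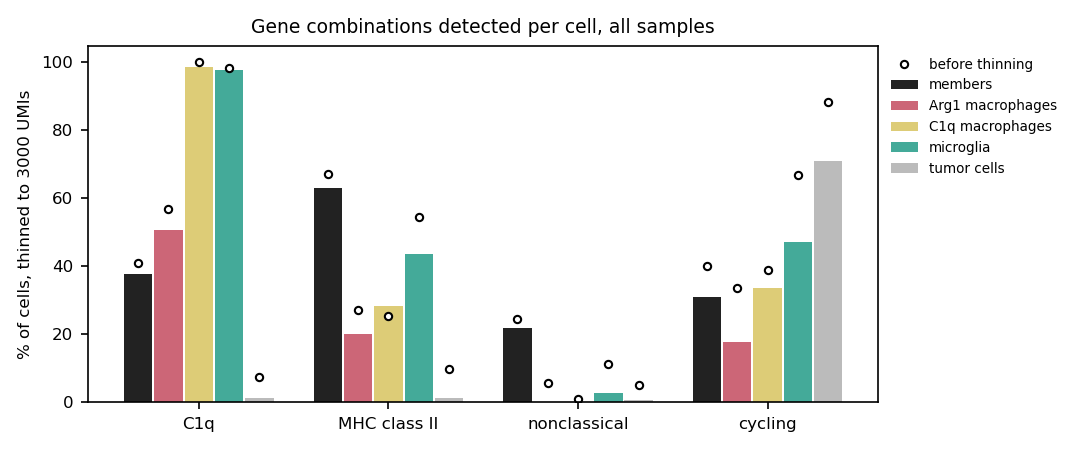
Percentage of cells in each class with the named gene combination, pooled over samples (159 members, 158 Arg1 macrophages, 177 C1q macrophages, 579 microglia, 38828 tumor cells). Bars show cells thinned to 3000 UMIs and open circles all cells before thinning; the nonclassical combination was found in 21.8% of thinned members and in at most 2.69% of the other classes.

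These combinations overlapped among members. Of the 65 members with the C1q combination, 53 (81.5%) also had the class II combination, which is 49.5% of the 107 class II members. Of the 39 with the nonclassical combination, 19 (48.7%) had class II and 11 (28.2%) had C1q. Only 15 members had none of the 4 combinations, and their median depth was 2628 UMIs. The C1q combination was found in 50%, 50%, 37%, 36% and 48.9% of members by sample, and the class II combination in 60%, 100%, 63%, 65.3% and 73.3%. The vehicle and Xevinapant samples overlapped in both.

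Other genes differed between these sub-groups in each of the 3 samples with more than 10 members. Members with the C1q combination had Apoe at 11222, 8980 and 11980 CPM in vehicle 4, Xevinapant 1 and 2, and Xevinapant 3 and 4, against 3079, 3155 and 1119 CPM in the remaining members. Mrc1, the mannose receptor of macrophages, was at 859, 916 and 946 CPM against 178, 212 and 201 CPM. Plac8 went the other way, at 1317, 865 and 1261 CPM in C1q members and at 2744, 3607 and 2937 CPM in the rest, while Ccr2 was at 1412, 906 and 1326 CPM against 1500, 1272 and 1268 CPM.

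Members with the nonclassical combination, 4, 21 and 11 cells in these samples, had little Apoe, at 778, 606 and 3509 CPM, against 8701, 8307 and 8265 CPM in the rest. They had more Itgal (the alpha chain of LFA-1), at 674, 619 and 771 CPM against 143, 169 and 172 CPM. Cebpb, a transcription factor that nonclassical monocytes depend on, was at 1816, 1812 and 1794 CPM against 501, 725 and 933 CPM. Chil3 was also higher there, at 7626, 1512 and 3801 CPM against 1229, 601 and 252 CPM, although it is a gene of classical monocytes. Members without the class II combination had more Hp, at 1784, 1096 and 1243 CPM against 220, 80.9 and 96.9 CPM. These sub-groups were cut on the same cells, and no test was made between them.

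Xevinapant was not used to choose the members, so its effect could be tested within the cells that the rule kept. Of cells that met every other condition, the Arg1 limit took out 68 Xevinapant and 2 vehicle cells with 5 or more UMIs. The fold changes below, that of Hmox1 included, are thus conditional on that limit, and its part in them was not tested. UMI counts were summed over the members of each sample and fitted with edgeR's quasi-likelihood test, with vehicle 2 left out for having under 10 members. Of 4511 genes tested, 0 passed a Benjamini-Hochberg adjusted p under 0.05 (0%), and 334 (7.4%) had an unadjusted p under 0.05. Of these, 179 (3.97%) were higher and 155 (3.44%) lower after Xevinapant. In the 4 tested samples, vehicle and Xevinapant values did not overlap, with the latter higher, in 869 genes (19.3%), and with the latter lower in 792 genes (17.6%). The median log2 fold change over all genes was 0.01. With 2 samples a group, no gene below is called changed, and its values are given as measured. With no filter on low counts the same test called 66 genes, and DESeq2 called 1, Hmox1. The study describes 4 mice per group, but alike matrices were joined here, so p-values reflect the spread between the joined samples.

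The smallest p among genes higher after Xevinapant belonged to Hmox1, heme oxygenase 1, which breaks down heme. Hmox1 stood at 385 and 155 CPM in vehicle 1 and 3 and vehicle 4 and at 1288 and 1277 CPM after Xevinapant, and vehicle 2, left out of the test, had 427 CPM. The log2 fold change was 2.40 ± 0.37 (SE; edgeR adjusted p = 0.111). The gene was detected in 93 members, namely 5, 2 and 10 in the vehicle samples and 53 and 23 in the Xevinapant samples. The most in 1 member was 11, 2 and 4 UMIs in vehicle and 100 and 101 UMIs after Xevinapant, of 915 UMIs in all members. Its mean in Arg1 macrophages was 13963 CPM, above the level in members of every sample. Within members, Hmox1 was lower in those with the nonclassical combination, at 104, 213 and 359 CPM against 167, 1832 and 1701 CPM in the rest.

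Tnfrsf11a (RANK), a TNF receptor family member that signals to NF-kB, was at 90.5 and 38.8 CPM in vehicle and 246 and 277 CPM after Xevinapant, a log2 fold change of 2.23 ± 0.43 (SE; edgeR adjusted p = 0.432). The potassium channel Kcnn4 was at 22.6 and 19.4 CPM against 202 and 147 CPM, with a log2 fold change of 3.09 ± 0.61 (SE). Only 3 UMIs lay behind its vehicle values, and vehicle 2 had 142 CPM from 1 UMI. Vmp1, an autophagy membrane protein, had 294 and 281 CPM against 670 and 676 CPM. Dab2, an endocytic adaptor of macrophages, had 340 and 184 CPM against 652 and 626 CPM. Their log2 fold changes were 1.24 ± 0.28 and 1.40 ± 0.32 (SE), and the adjusted p was 0.554 for both in edgeR.

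Of the 5 genes of smallest p in the other direction, 4 had higher means in tumor cells than in members. How many of all genes tested did so was not counted. Fabp7, a fatty acid-binding protein of neural stem cells and tumor cells, was at 181 and 320 CPM against 33.6 and 42.0 CPM after Xevinapant, a log2 fold change of -2.83 ± 0.43 (SE; edgeR adjusted p = 0.111). Its mean in tumor cells was 1014 CPM. Glrx3, Rgcc and Hras had log2 fold changes of -1.79 ± 0.38, -2.14 ± 0.54 and -1.33 ± 0.34 (SE) and means of 1029, 689 and 1593 CPM in tumor cells, and all 3 were at 0 in vehicle 2. These 4 genes were highest in vehicle 4, as was the level of tumor transcripts given above, of which Fabp7 is itself a part. The source of this RNA was not tested. In vehicle 1 and 3 that level, 6.14%, lay between the Xevinapant samples, while Fabp7, Glrx3, Rgcc and Hras were above both. In that sample 7 of 8 Fabp7 UMIs and 7 of 9 Glrx3 UMIs lay in 1 member, and Rgcc rested on 3 UMIs. Rsad2 (viperin), an interferon-induced antiviral protein, was at 2400 and 495 CPM against 159 and 277 CPM, a log2 fold change of -2.65 ± 0.57 (SE; edgeR adjusted p = 0.525). In vehicle 1 and 3, 102 of its 106 UMIs came from 1 member, and vehicle 2 had none.

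**Figure D4:**
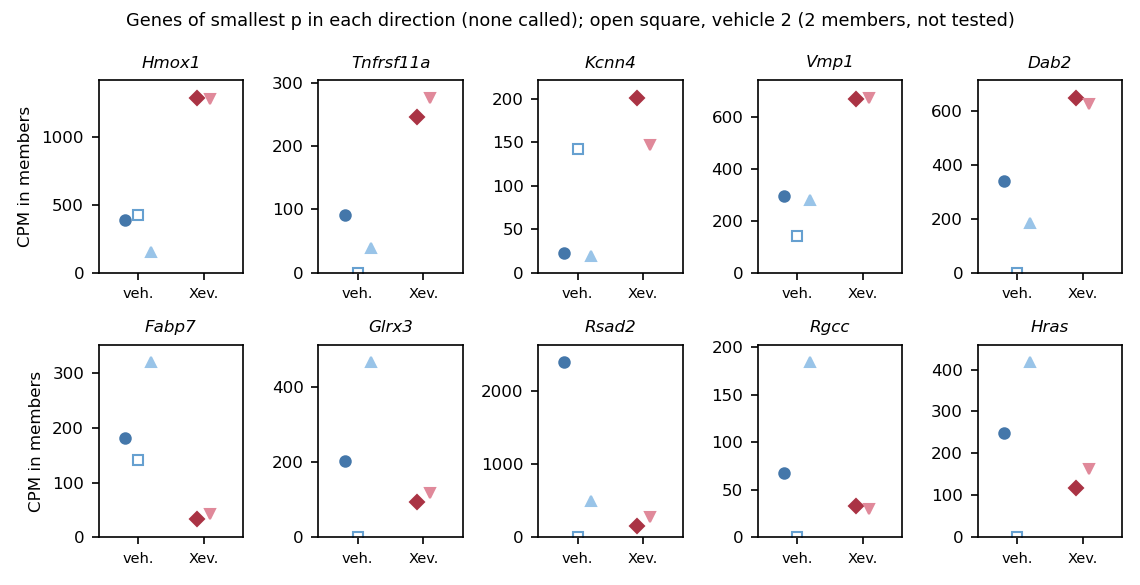
CPM in members of the 10 genes of smallest p, 5 in each direction, with a linear axis from 0 for each gene. Filled points are the 4 tested samples and the open square is vehicle 2, which had 2 members and was not tested; Hmox1 was at 155 to 385 CPM in the tested vehicle samples and at 1277 and 1288 CPM after Xevinapant.

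Beyond the 4 genes of highest level in each list, the list genes named from here on were picked after their values were seen. Each count of list genes at an unadjusted p under 0.05 stands against a background of 3.97% higher and 3.44% lower, unless another is given. Genes of hypoxia and glycolysis were higher in value after Xevinapant. Summed over all 37 genes of the list with probes, the level was 4097, 3840 and 3367 CPM in the vehicle samples and 6842 and 5956 CPM after Xevinapant, with no overlap. Sums of 6 of the 24 lists did not overlap between the groups in members. Full separation of 3 samples from 2 in a given direction has an exact permutation p of 0.1. The share over all genes was not counted for these 5 samples, so the lack of overlap is not read as a result. The immediate early and dendritic sums were also higher after Xevinapant, and the classical, nonclassical and macrophage sums lower. The 4 dendritic genes tested had a median log2 fold change of -0.54, with 1 higher and 2 lower without overlap. Of these 37 genes, 27 passed the filter on low counts. Among those 27, none passed the adjusted threshold, 10 were higher and 0 lower at an unadjusted p under 0.05 (background 3.97% and 3.44%), and 17 did not overlap with Xevinapant higher, against 0 lower (background 19.3% and 17.6%). The median log2 fold change of the 27 was 0.81, beside 0.01 over all genes. As genes that are high in 1 group pass the filter more easily, the summed level of all 37 is the less selected figure.

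The 4 genes of the list with the highest level are glycolytic enzymes. Pkm (pyruvate kinase) was at 611 and 398 CPM in the tested vehicle samples, 427 CPM in vehicle 2, and 1111 and 928 CPM after Xevinapant, a log2 fold change of 1.08 ± 0.30 (SE). Ldha (lactate dehydrogenase A) was at 407 and 475 CPM against 766 and 760 CPM, but vehicle 2 had 853 CPM from 6 UMIs. Aldoa (aldolase) and Gpi1 (glucose-6-phosphate isomerase) had log2 fold changes of 0.49 ± 0.28 and 0.72 ± 0.36 (SE). For these 4 genes the edgeR adjusted p lay between 0.554 and 0.733.

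Among further genes of the list, Slc2a1 (GLUT1), the glucose transporter, was at 90.5 and 77.6 CPM in vehicle and 320 and 202 CPM after Xevinapant, and vehicle 2 had none. Its log2 fold change was 1.71 ± 0.43 (SE), that of Tpi1 (triosephosphate isomerase) 1.40 ± 0.37 and that of Pgam1 (phosphoglycerate mutase) 1.24 ± 0.34. The collagen hydroxylase P4ha1 and the hypoxia-induced Ankrd37 had log2 fold changes of 1.74 ± 0.50 and 2.57 ± 0.75 (SE), the latter from 1 UMI in each vehicle sample. Pfkp (phosphofructokinase) and the lactate exporter Slc16a3 (MCT4) had 1.07 ± 0.44 and 0.81 ± 0.33 (SE). Hif1a, which encodes the hypoxia-inducible factor, was at 22.6 and 58.2 CPM against 103 and 88.2 CPM. Vegfa, the vascular growth factor, had no UMI in the 39 vehicle members and 66 UMIs in 17 Xevinapant members, with 29 of these in 1 cell. Against 3 counts over the pooled vehicle cells, 19.4 CPM, its pooled level of 96.4 CPM was at least 4.96-fold higher. That fold leaves out the spread between samples, and the gene was picked for its 0 in vehicle. By sample, 3 counts equal 67.9, 427 and 29.1 CPM in vehicle, so single vehicle samples resolve such a level poorly or not at all.

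In the other classes the same 37 genes overlapped between the groups. They summed to 15831, 11996 and 16564 CPM in vehicle Arg1 macrophages and to 14882 and 15200 CPM after Xevinapant. In C1q macrophages the sums were 6841, 10325 and 2969 CPM against 6756 and 5355 CPM. In microglia they were 6337, 5608 and 6999 CPM against 7680 and 6396 CPM. Tumor cells had 6570, 6806 and 6102 CPM against 8997 and 6591 CPM. Members of vehicle mice were thus below microglia of the same sample in all 3 vehicle samples, and both Xevinapant samples of members were below microglia too. No gene of the list passed the test of the difference between the effect in members and that in microglia (36 tested, median difference 0.78 on the log2 scale against 0.07 over all genes), Arg1 macrophages (35 tested, 0.90 against 0.06) or C1q macrophages (29 tested, 0.33 against -0.03).

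**Figure D5:**
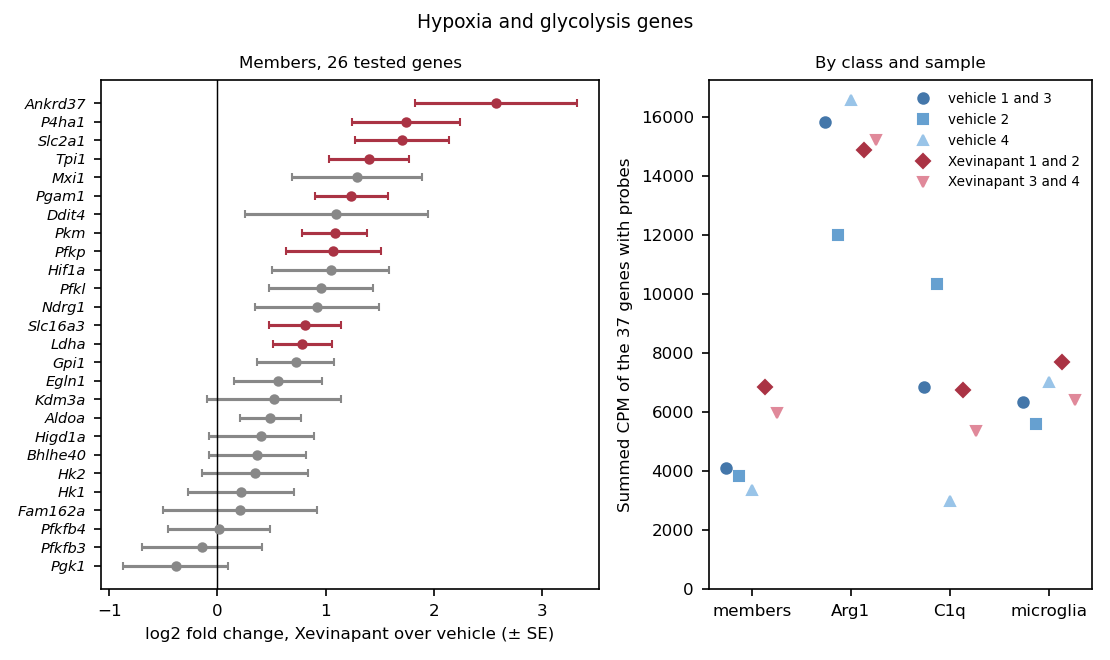
Left, log2 fold change of Xevinapant over vehicle in members with its SE for 26 tested hypoxia and glycolysis genes (Vegfa, at 0 in vehicle, left out; red, unadjusted p under 0.05; none passed adjustment). Right, summed CPM of all 37 listed genes in each sample and class; members had 3367 to 4097 CPM in vehicle and 5956 and 6842 CPM after Xevinapant, while the groups overlapped in the other 3 classes.

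Among genes of iron, lipid and lysosome handling, 3 of 17 tested were higher and 4 lower at an unadjusted p under 0.05. Besides Hmox1, ferritin heavy chain Fth1 was at 1630, 569 and 1436 CPM in vehicle and 2123 and 2772 CPM after Xevinapant (log2 fold change 0.69 ± 0.26, SE). The lipid droplet protein Plin2 was at 453, 711 and 427 CPM against 596 and 773 CPM, and vehicle 2 overlapped (0.65 ± 0.28). Transferrin, Trf, was at 317 and 369 CPM against 199 and 206 CPM (-0.77 ± 0.28), and vehicle 2 had 142 CPM from 1 UMI. The prosaposin gene Psap, the highest of the list, was at 4414, 3697 and 3532 CPM against 2249 and 2932 CPM. The edgeR adjusted p was above 0.05 for each of these genes.

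Of 19 classical monocyte genes tested, 2 were higher and 5 lower at an unadjusted p under 0.05, and the list's median was -0.10 (background 3.97% and 3.44%). With vehicle 4 as the 1 vehicle sample, 6 of 21 were higher and 0 lower (median 0.56) in members with no tumor transcript, where the background was 6.05% and 4.30%. In members with at least 2 of Plac8, Fgr and Adgre5, 2 of 22 were higher and 10 lower, against 6.69% and 3.77%. Lyz2, lysozyme, was the highest, at 4052, 9954 and 6744 CPM in vehicle and 4325 and 4939 CPM after Xevinapant. Ifitm3 lay between 853 and 1525 CPM and the integrin Itgam (CD11b) between 569 and 1183 CPM, each with overlap. The detoxifying enzyme Mgst1 was at 249, 142 and 233 CPM against 116 and 96.6 CPM (log2 fold change -1.13 ± 0.35, SE).

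Of 12 nonclassical genes tested, 1 was higher and 3 lower at an unadjusted p under 0.05, with a median of -0.06. Ace, given above, had a log2 fold change of -1.15 ± 0.42 (SE), and Spn (CD43) one of 1.28 ± 0.36 (SE), from 181 and 97.0 CPM to 267 and 349 CPM. These 2 genes of 1 subset thus lay in opposite directions, and in vehicle 2 Spn was at 569 CPM. Nr4a1, the nuclear receptor needed for nonclassical monocytes, was at 249, 711 and 466 CPM against 161 and 273 CPM. Itgal and the migration regulator Klf2 overlapped between the groups.

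Among 14 transcription factors tested, 1 was higher and 2 lower at an unadjusted p under 0.05. Cebpb was at 792, 1138 and 747 CPM in vehicle and 1091 and 1205 CPM after Xevinapant (log2 fold change 0.60 ± 0.26, SE), with vehicle 2 between. Irf8, a factor of monocyte and dendritic cell development, was at 1109 CPM in vehicle 1 and 3 and at 142 to 239 CPM in the other 4 samples, and 27 of its 49 UMIs there came from 1 member. Zeb2, Maf and Spi1 (PU.1), the other factors of highest level, overlapped.

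For receptors of migration and adhesion, 3 of 18 tested were higher and 2 lower at an unadjusted p under 0.05, with a median of 0.30. C5ar1, the receptor for complement C5a, was at 249, 427 and 213 CPM in vehicle and 594 and 479 CPM after Xevinapant (log2 fold change 1.26 ± 0.30, SE). Ccr1, a receptor of Ccl3 and Ccl5, was at 67.9, 0 and 97.0 CPM against 184 and 210 CPM (1.17 ± 0.40). The integrin alpha chain Itga4, which binds VCAM-1 on endothelium, was at 340, 711 and 311 CPM against 146 and 189 CPM (-0.95 ± 0.30). In all 3 genes the 5 samples did not overlap. In the 4 tested samples, 7 of the 18 were higher and 2 lower without overlap, against 19.3% and 17.6% over all genes. The background of an unadjusted p under 0.05 was 3.97% higher and 3.44% lower. Itgb2, Sirpa and Cd44, the most abundant of the list beside Itgam, overlapped between the groups, except that Cd44 was at 543 to 711 CPM in vehicle and 831 and 861 CPM after Xevinapant.

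Of 31 chemokine and cytokine genes, 14 could be tested, and 3 were higher and 0 lower at an unadjusted p under 0.05. Ccl7, a ligand of Ccr2, was at 249, 0 and 67.9 CPM in vehicle and 383 and 298 CPM after Xevinapant (log2 fold change 1.41 ± 0.46, SE). Ccl6 was at 136 and 252 CPM against 340 and 382 CPM (0.79 ± 0.33), but vehicle 2 had 1706 CPM from 12 UMIs. Vegfa, described above, was the third, and it passed the filter on low counts only through its Xevinapant values. Tgfb1 and Ccl9 overlapped, and Cxcl10 was at 792, 0, 126, 89.6 and 470 CPM, with 97 of its 200 UMIs in 1 member. Of innate sensors and Fc receptors, 1 of 15 tested was higher and 0 lower, and Tyrobp and Fcer1g, the adaptors of activating receptors, lay at 2520 to 3555 CPM and 1485 to 2083 CPM in all samples.

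Interferon response genes showed no common direction. Of 41 tested, 0 were higher and 4 lower at an unadjusted p under 0.05, and the median was -0.17. Their summed level was 23973, 3840 and 15050 CPM in vehicle and 15115 and 16460 CPM after Xevinapant, so the spread among vehicle samples exceeded the difference. The antiviral gene Ifit2 was at 407, 0 and 262 CPM against 71.7 and 227 CPM (log2 fold change -1.17 ± 0.49, SE). Ly6e was at 3758, 853 and 3629 CPM against 4249 and 2982 CPM, and Irf7, Bst2 and Slfn5 were likewise lowest in vehicle 2.

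For MHC class II, 0 of 12 tested genes were higher and 1 lower at an unadjusted p under 0.05, with a median of -0.13. The list summed to 45886, 55461 and 33138 CPM in vehicle and 41460 and 36145 CPM after Xevinapant. Among macrophage genes, 0 of 27 were higher and 4 lower, with a median of -0.06. With vehicle 4 as the 1 vehicle sample, 13 of 27 were higher and 2 lower (median 0.63, background 6.69% and 3.77%) in members with at least 2 of Plac8, Fgr and Adgre5. In members with no tumor transcript, 1 of 28 was higher and 13 lower (median -0.78, background 6.05% and 4.30%). The tetraspanin Cd63 was at 181, 142 and 272 CPM against 134 and 84.0 CPM (log2 fold change -1.06 ± 0.40, SE). C1qb was at 2332, 6542 and 2533 CPM against 2390 and 2537 CPM. Of 13 tested genes of the wound-type suppressive list, 3 were higher and 1 lower, with a median of 0.50. Among them, the matrix protein Tgfbi was at 2784, 1422 and 1368 CPM against 3789 and 3356 CPM (0.84 ± 0.32). Retnla (Fizz1) was not tested; its 313 UMIs lay in 5 members.

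The 27 IAP and death receptor genes with probes summed to a mean of 4021 CPM in members, against 3883 CPM in Arg1 macrophages, 3400 CPM in C1q macrophages, 2833 CPM in microglia and 2321 CPM in tumor cells. Birc2 (cIAP1) gave 0, 0 and 2 UMIs in vehicle and 7 and 7 UMIs after Xevinapant, and Xiap gave 0, 2 and 3 UMIs against 6 and 6. Birc3 (cIAP2) was at 67.9, 142 and 146 CPM against 94.1 and 84.0 CPM. These 3 genes were picked as the drug's targets. Of 18 IAP and death receptor genes tested, 0 in either direction had an unadjusted p under 0.05, and the median was -0.17. Mcl1, an anti-apoptotic BCL2 family member, was at 996, 142 and 767 CPM against 840 and 1235 CPM, and the TNF receptors Tnfrsf1b and Tnfrsf1a lay at 544 to 860 CPM and 407 to 553 CPM. Diablo, the gene of SMAC itself, had no probe. Among NF-kB targets, 0 of 19 were higher and 1 lower, with a median of 0.01, and the inhibitor Nfkbia was at 22.6, 284 and 165 CPM against 262 and 214 CPM.

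Proliferation genes overlapped between the groups in members. They summed to 2151, 1138 and 3047 CPM in vehicle and 1655 and 1302 CPM after Xevinapant in members, and in tumor cells to 7424, 7258 and 7649 CPM against 5409 and 6519 CPM. Of 12 tested in members, 0 were higher and 2 lower at an unadjusted p under 0.05, with a median of -0.61. That median was -2.74 in members with no tumor transcript and 0.51 in members with fewer than 2 C1q genes, both with vehicle 4 as the 1 vehicle sample. Ube2c, a mitotic ubiquitin enzyme, had a log2 fold change of -1.94 ± 0.52 and the replication helicase subunit Mcm2 one of -1.43 ± 0.49 (SE). Of 12 immediate early and heat shock genes tested, 3 were higher and 0 lower, among them Jun at 317, 284 and 204 CPM against 493 and 407 CPM (0.89 ± 0.32).

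Of 6 tested tumor genes, 0 were higher and 3 lower at an unadjusted p under 0.05, with a median of -1.28. Ckb and Tubb2b, besides Fabp7, had log2 fold changes of -1.11 ± 0.36 and -1.46 ± 0.40 (SE). Without vehicle 4, the median of the list was 0.79. The red cell genes summed to 0, 0 and 12789 CPM in vehicle and to 1460 and 63.0 CPM after Xevinapant, and the endothelial, mural and fibroblast genes to 113, 284 and 1359 CPM against 1075 and 265 CPM.

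Whether the effect of Xevinapant differed between members and another class was tested by a class by treatment term in edgeR, with the sample as block. Against microglia, 4 of 9081 genes passed (0.044%), namely Hbb-bt, Hba-a2, Acta1 and Myh4, whose UMIs lay mostly in single members of vehicle 4, as given above. In Xevinapant 1 and 2, 1 member held 168 Hba-a2 UMIs and 1 held 77 Hbb-bt UMIs, and no fit was made without these members. Against C1q macrophages 1 of 5374 passed (0.0186%), Gpnmb, a glycoprotein of lipid-laden macrophages, with 34 of its 66 UMIs in vehicle 4, 30 of them in 1 member. Against Arg1 macrophages 14 of 7487 passed (0.187%), among them Ccr2 and Plac8, which the rule used and for which the test is not valid. Only 1 vehicle sample had 10 or more Arg1 macrophages, so that contrast set 1 vehicle sample against 2, and none of the 14 passed without TMM scaling or with DESeq2.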

How the data were processed

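Cells of orthotopic mGSC tumors from vehicle-treated and Xevinapant-treated mice were profiled with the 10x probe-based assay for fixed cells. The authors deposited 8 matrices of raw UMI counts per gene and barcode (19059 genes), 4 for each of 2 GEO samples. The labels name mm10 and Seurat, and the matrix headers give Cell Ranger 7.1.0. Matrices of the Xevinapant sample are named Vehicle, but their group was taken from its label. Probe capture differs between genes, so levels were not compared between genes.

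Barcodes with under 200 genes or over 10% mitochondrial UMIs were dropped, as were those below 0.8 in the ratio of log10 genes to log10 UMIs. Immune barcodes had at least 3 of 5 immune genes (Ptprc, Laptm5, Coro1a, Cd53 and Tyrobp) and at most 3 summed UMIs of Olig1, Olig2 and Ptprz1. The study names 4 mice per group, but 3 pairs of matrices were nearly alike: the median squared difference in expression over counting noise was 1.29 to 5.42 within them, against 16.4 to 58.0 in the 9 other pairs of a group. They were therefore joined, giving 5 samples. Per-matrix totals ran from 71835789 to 300206053 UMIs.

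UMI counts were summed per sample and class, and samples with under 10 cells of the class were left out. They were fitted with edgeR 4.0.16 (quasi-likelihood test, TMM scaling, filterByExpr, Benjamini-Hochberg adjustment over all genes tested) in R 4.3.3, with DESeq2 1.42.0 as an alternative. Shares were compared by exact permutation over samples (scipy 1.17.1). CPM is counts per 1000000 summed UMIs of the class in a sample, and the floor is 3 counts. Intervals are exact Clopper-Pearson at 95% and cover counting error only. Doublets were scored by Scrublet (scanpy 1.11.5) and removed only as an alternative. The code was tested on simulated data.

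The members and the 24 gene lists were chosen with earlier results of these data known. Of the list entries, 15 had no probe. Named genes were the markers, up to 4 genes of highest mean CPM per list, the 5 of smallest p in each direction where fewer than 3 passed, and the 12 of highest ratio to each class at 50 CPM or more. Other names are said to be picked after their values were seen. Alternatives covered scaling, filters, DESeq2, stricter membership, thinning, left-out samples and the unit of replication. Some list genes are not reported here.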

Additional observations from a re-analysis of the deposited data

Results flagged for a closer look

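For 19 genes the class by treatment term, which compares the effect of Xevinapant in members with that in another class, passed the threshold (edgeR, adjusted p under 0.05). Each value is the log2 effect in members minus that in the other class, and no explanation was tested.

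Against microglia the differences were -14.70 for Myh4 (adjusted p = 0.011), -12.62 for Acta1 (0.0189), -3.65 for Hbb-bt (0.0189) and -3.90 for Hba-a2 (0.026). Of the members' UMIs, 15 of 16 for Myh4, 15 of 17 for Acta1, 312 of 398 for Hbb-bt and 352 of 553 for Hba-a2 lay in single members of vehicle 4. Against C1q macrophages the difference was -5.46 for Gpnmb (adjusted p = 0.0334), with 30 of 66 UMIs in 1 member.

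Against Arg1 macrophages the fit held 1 vehicle sample, and none of its 14 genes passed without TMM or with DESeq2, so these are values and not shown to differ. The difference was 13.23 for Saa3 (adjusted p = 4.75e-16) and 10.62 for Thbs1 (0.00849). In members Saa3 was at 0, 0, 262, 340 and 214 CPM and Thbs1 at 0, 0, 767, 817 and 1100 CPM, so vehicle 4, which this fit left out, lay with or near the Xevinapant samples. Single members held 69 of 79 Thbs1 UMIs and 25 of 27 Saa3 UMIs in vehicle 4, and 217 of 262 Thbs1 UMIs in Xevinapant 3 and 4. Flt1 was at 12.30 (adjusted p = 0.00104) and Kdr at 10.55 (0.0492), and 104 of 118 Flt1 UMIs and 33 of 48 Kdr UMIs were in 1 member. Dusp1 was at 3.57 (0.0136) and H2-Q7 at 2.54 (0.0492).

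In the other direction, Rsad2 was at -3.23 (adjusted p = 6.47e-06), Mxd1 at -3.40 (0.00407), Irf8 at -2.37 (0.00944), H2-Aa at -9.13 (0.0466), Ccl4 at -2.89 (0.0492) and Chil3 at -2.51 (0.0492). In vehicle 1 and 3, the 1 vehicle sample of this fit, single members held all 24 Ccl4 UMIs, 17 of 20 Mxd1 UMIs, 102 of 106 Rsad2 UMIs and 27 of 49 Irf8 UMIs. Ccr2 was at -3.07 and Plac8 at -2.56, and as genes of the membership rule they have no valid test.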

How the results depend on the processing

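The share of members among all barcodes kept its direction in every alternative run, with a difference of 0.188 to 0.736 percentage points when 1 sample was left out, and it passed the threshold only with each matrix as 1 mouse (0.462, exact permutation p = 0.0286). Members per Arg1 macrophage, -0.30 on the log2 scale, changed direction with cells thinned to 3000 UMIs (0.45) and with at least 2 of Plac8, Fgr and Adgre5 (0.0934), and ranged from -0.98 to 0.90 with 1 sample left out, being 0.90 without vehicle 4 and 0.23 without Xevinapant 1 and 2.

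The 0 genes called for Xevinapant became 66 with no filter on low counts, 1 with DESeq2, 22 with at least 2 of Plac8, Fgr and Adgre5, 13 with no tumor transcript, 53 with fewer than 2 C1q genes, 11 with each matrix of at least 10 members as 1 mouse, and 6 to 49 with 1 sample left out (49 without vehicle 1 and 3, 6 without vehicle 4, 20 without Xevinapant 1 and 2, 41 without Xevinapant 3 and 4). With no minimum of members, an alternative chosen after seeing the data, it was 1. Most of these settings leave 1 sample in a group, which is then assumed to vary like the other group. The matrix numbers are file numbers in separate pools and do not pair mice. With them as a replicate block, 0 genes were called. No gene whose log2 fold change is printed changed sign in any alternative that tested it. Many of these genes were picked by small p or after their values were seen, so a stable sign was likely in advance. It is therefore no measure of how firm the values are. List medians near 0 changed sign in several lists, and so did some further from 0. Examples were those of proliferation (-0.61, and 0.51 with fewer than 2 C1q genes), of endothelial, mural and fibroblast genes (-1.08, and 0.54 with at least 2 of Plac8, Fgr and Adgre5) and of tumor genes (-1.28, and 0.79 without vehicle 4). The median of hypoxia and glycolysis stayed between 0.71 and 1.53. Most settings take it over genes that passed the filter on low counts, which genes high in 1 group pass more easily. They also reuse largely the same cells, so this range is no measure of how firm the median is.

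The 4 genes that differed from microglia became 9 without TMM, 0 with DESeq2, 25 with no minimum of members and 0 to 35 with 1 sample left out (0 without vehicle 4). With 1 sample left out, Hbb-bt ranged from -5.53 to 2.31 and Hba-a2 from -4.56 to 6.68, both positive only without vehicle 4. The 14 that passed against Arg1 macrophages became 0 without TMM, 0 with DESeq2 and 4 with no minimum, and leaving out a sample left no residual degrees of freedom. The 1 that differed from C1q macrophages became 0 without TMM, 0 with DESeq2, 5 with no minimum and 4 to 13 with 1 sample left out. The causes were not tested. Depth limits the vehicle values, where 3 counts equal 29.1 to 427 CPM.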

Other observations

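Further genes with no UMI in the 39 vehicle members had 40 or more UMIs in the Xevinapant members. They were picked for these counts, so their place among the 66 genes called with no filter on low counts adds no support. Summed over members, each Xevinapant sample also held more UMIs than any vehicle sample. The folds below pool the cells of a group and leave out the spread between samples. Against 3 counts over the vehicle group (19.4 CPM), Plekhg2 was at least 3.61-fold higher, with 48 UMIs in 28 members, and Cemip2, a hyaluronidase, at least 3.16-fold higher, with 42 UMIs in 23 members. Ccn2, Sema3f, Egfl7 and Plvap were at least 6.91, 6.76, 6.08 and 5.56-fold higher, but 90 of 92 Ccn2, 86 of 90 Sema3f, 78 of 81 Egfl7 and 65 of 74 Plvap UMIs came from the 1 member that also held most Flt1 UMIs.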
